A study of Mus musculus with 6 samples.

Results

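Voltage-gated calcium and sodium channels open when the membrane of a neuron is depolarized, and HCN channels open when it is hyperpolarized. Calcium entering through the first of these families drives transmitter release, burst firing and signals to the nucleus, sodium channels carry the action potential, and HCN channels carry a pacemaker current that sets resting excitability and dendritic integration in hippocampal pyramidal neurons. Ryanodine receptors and IP3 receptors release calcium from the endoplasmic reticulum and extend the signal inside the cell. The genes of these channels were taken from the expression table by symbol: the Cacna1 and Cacna2d genes, Cacnb1 to Cacnb4, Cacng1 to Cacng8, the Scn genes of alpha and beta subunits, the Hcn genes, Ryr1 to Ryr3 and Itpr1 to Itpr3. Of the 16060 rows of the table, 48 matched. Scn4a had no match. The gene of the brain sodium channel alpha subunit listed as Scn2a1 is spelled outside the rule, so it was not counted as a member, and its values are given separately.

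Hippocampal RNA of C57BL/6 mice was sequenced, with 3 libraries in the Control group and 3 in the methamphetamine (MA) group. By the study's methods the mice were adult males, MA was injected intraperitoneally at 5, 10 and 15 mg/kg in weeks 1, 2 and 3, Control mice received saline, and the mice were killed after behavioral tests on day 22. The age in weeks is not given in the sources used here. Values below are the deposited ones, read as log2(RPKM + 1), and a level in RPKM is the back-transformed value. A fold change is the mean of MA minus the mean of Control on the log2 scale, which understates the change of low genes. The depth of the libraries is unknown. Marker lists of cell types and regions were looked up. All 5 markers of dentate gyrus granule cells, all 4 of CA1 pyramidal cells and all 4 of CA3 pyramidal cells were detected, with C1ql2, Wfs1 and Bok the most abundant. However, no marker of the 14 lists, which include thalamus, striatum and choroid plexus, was at 0 in all libraries. Detection alone therefore cannot verify the tissue label.

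The library labelled MA replicate 3 stood apart from the rest. Its mean Pearson correlation with the other MA libraries across the tested genes was 0.978, against 0.984 and 0.985 for MA replicates 1 and 2 and 0.991 to 0.993 for the Control libraries, and limma gave it a sample quality weight of 0.194, against 0.937 to 2.45 for the other libraries. This library held the lowest of the 6 values in 17 of the 39 tested channel genes (43.6%) and in 29.8% of all tested genes, and the highest value in 5 of the 39 (12.8%) and in 25.6% of all tested genes. None of its rows was at 0, where the other libraries had 259 to 437 such rows. In this library Scn10a and the ryanodine receptor partner gene Hrc had the same value of 0.000206. The lack of rows at 0 therefore does not show that every gene was detected. Because this library stood apart, counts that lead the results are also given without MA replicate 3.

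No channel gene passed the adjusted threshold. Of the 48 members, 39 had a level of at least 0.5 RPKM in at least 3 of the 6 libraries and were tested. In limma's test across 13321 genes, 0 of these 39 had an adjusted p under 0.05, where 0.263% of all tested genes did. An unadjusted p under 0.05 was reached by 2 of the 39, Cacna1g and Scn3b, where 10.4% of all tested genes reached it. The 3 MA values lay above the 3 Control values in 1 tested member, Cacna1g, against 7.32% of all tested genes, and below them in 2, Cacnb1 and Scn3b, against 10.2%. These shares lie below those of the whole table. The mean was higher in MA for 18 tested members and lower for 21, with a median fold change of -0.01 that equals the median of all tested genes at this rounding. This member median was -0.077 without MA replicate 2, 0.025 without MA replicate 3 and 0.027 with the libraries weighted by quality, where the medians of all genes were -0.012, -0.0080 and -0.0077. When each library was left out in turn, 20 of the 39 fold changes changed sign at least once. Fold changes ran from -0.37 in Scn3b to 0.50 in Cacna1g. For 37 of the 39, the 95% interval of the fold change lay within 1 log2 unit on either side of 0, and the exceptions were Cacna2d2 and Cacnb4. The same held for 12840 of all 13321 tested genes, so it is not particular to the channel genes. With 3 mice against 3, the exact permutation test of a single gene cannot give a p below 0.1.

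Without MA replicate 3, limma still called 0 members at an adjusted p under 0.05, where 1.93% of all genes were called, and 7 of 39 had an unadjusted p under 0.05, where 23.3% of all genes had one. Among these 7 were Cacna1b, Cacnb4, Cacng4, Cacng7, Hcn3 and Itpr1, and neither Cacna1g nor Scn3b was among them. Without Control replicate 1 the number was 0, against 6.22% of all genes, and without Control replicate 2 it was 1, against 6.84%. With the libraries weighted by quality, 0 members were called by the adjusted p, against 4.40% of all genes, and 12 of 39 had an unadjusted p under 0.05, against 26.3%.

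**Figure D1:**
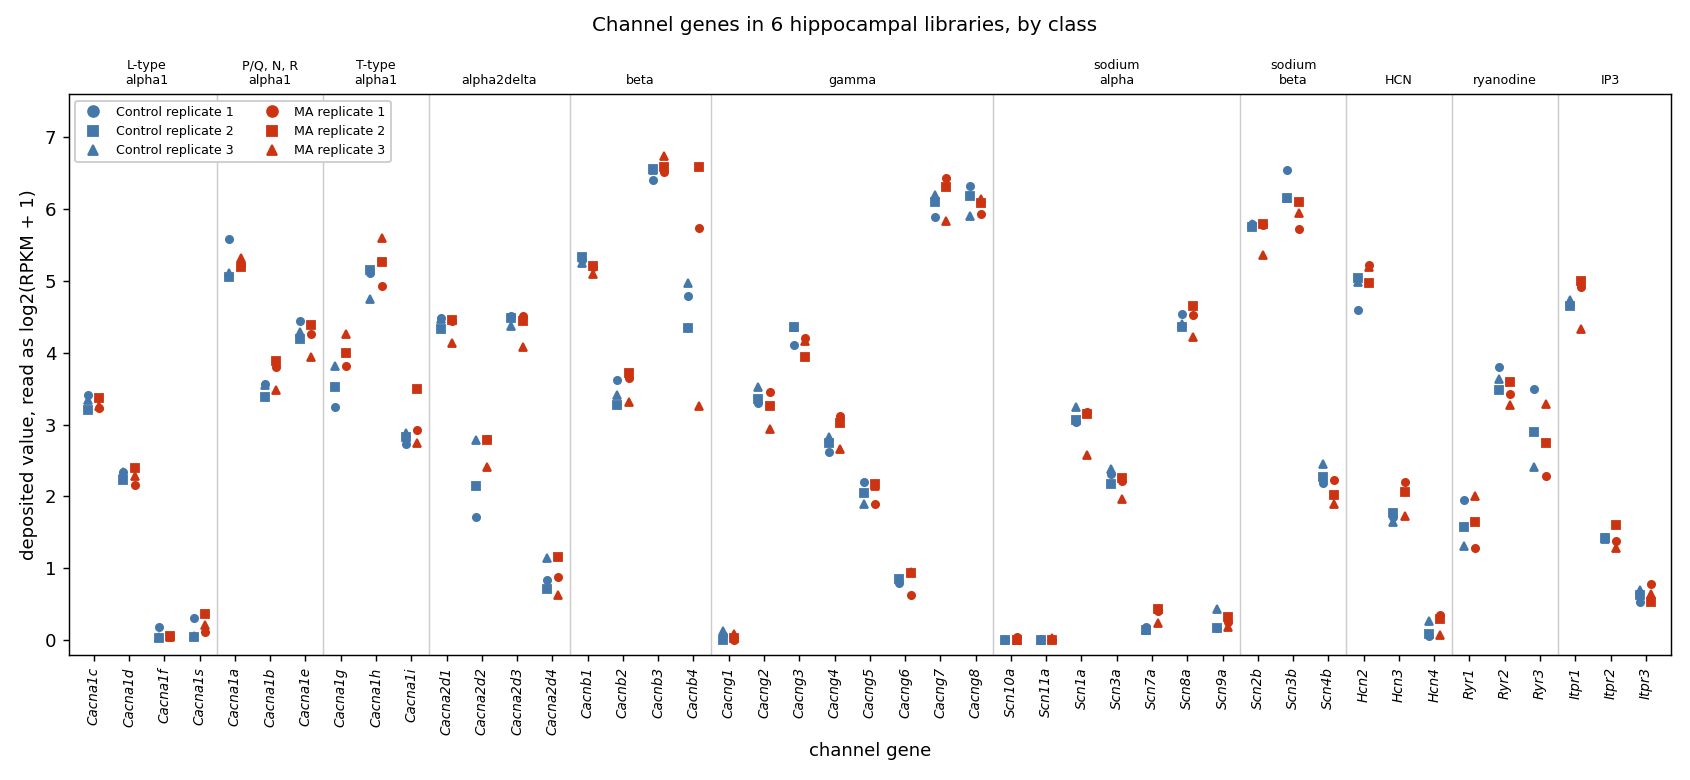
Deposited values, read as log2(RPKM + 1), of channel genes in each of the 6 libraries, with Control libraries in blue and MA libraries in red, 1 symbol per replicate number and gray lines between classes. The Cacnb4 values of the MA libraries spread from 3.26 to 6.59.

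Levels differed widely between the channel genes. Cacnb3, a beta subunit gene of the calcium channel, had a mean level of 93.5 RPKM. Lower levels were those of Cacng7 at 69.6, Scn3b at 68.7 and Cacng8 at 67.8 RPKM, and these last 3 levels lie close together relative to the spread between libraries. The 9 members under the filter included Cacna1f, Cacna1s, Cacng1, Hcn4, Scn7a, Scn9a, Scn10a and Scn11a, with mean levels of 0.004 RPKM in Scn10a to 0.199 RPKM in Scn7a. Most of these are genes of other tissues: Cacna1f is known from the retina, Cacna1s and Cacng1 from skeletal muscle, and Scn9a, Scn10a and Scn11a from peripheral sensory neurons.

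Among the L-type alpha1 genes, whose channels couple depolarization to gene expression, Cacna1c was the most abundant. Its values were 3.41, 3.21 and 3.35 in Control replicates 1 to 3 and 3.23, 3.36 and 3.25 in MA replicates 1 to 3. The groups overlapped, and the fold change was -0.04 (95% interval -0.26 to 0.19). Cacna1c made up 67.0% to 70.0% of the summed L-type level in every library and Cacna1d 28.8% to 30.8%, so the makeup of the class was nearly the same in the 6 mice. The summed level was 13.1 ± 1.07 RPKM in Control and 12.8 ± 0.958 RPKM in MA (SD, n = 3 each).

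Cacna1a, Cacna1b and Cacna1e encode the P/Q-, N- and R-type alpha1 subunits of presynaptic and dendritic channels. Cacna1a, the most abundant of them at 37.2 RPKM, had values of 5.58, 5.05 and 5.11 in Control and 5.22, 5.20 and 5.31 in MA. Control replicate 1 held the highest value and the other 5 libraries lay close together. Cacna1b, whose channel triggers transmitter release, had values of 3.56, 3.39 and 3.55 in Control and 3.80, 3.88 and 3.49 in MA. MA replicates 1 and 2 lay above all Control values and MA replicate 3 lay among them, and the fold change was 0.22 (95% interval -0.07 to 0.52, limma adjusted p = 0.598), with 0.15 without MA replicate 2 and 0.34 without MA replicate 3. Cacna1e showed a fold change of -0.11, or 0.014 without MA replicate 3. The summed level of the class was 66.7 RPKM in both groups, with an SD of 10.3 in Control and 3.10 in MA.

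T-type alpha1 subunits open at voltages near rest and support burst firing, and all 3 genes had a higher mean in MA. Cacna1g, which is strongly expressed in thalamic relay neurons, had values of 3.24, 3.52 and 3.82 in Control replicates 1 to 3 and 3.82, 4.002 and 4.27 in MA replicates 1 to 3. Cacna1g lies on the minus strand of chromosome 11 at 94408391 to 94474198 (GRCm38, GENCODE M21, given for location since the build of the table is not clear). Its groups did not overlap, but the lowest MA value exceeded the highest Control value only beyond the second decimal. The fold change was 0.50 (SE 0.17, 95% interval 0.10 to 0.91), with an unadjusted p of 0.0216 and a limma adjusted p of 0.383. The unadjusted p was 0.0746 without Control replicate 1, 0.0540 without Control replicate 2 and 0.0577 without MA replicate 3. Cacna1h, the most abundant T-type gene, had values of 5.11, 5.15 and 4.76 in Control and 4.93, 5.27 and 5.60 in MA. Its groups overlapped, with MA replicate 3 highest, and the fold change was 0.26 (95% interval -0.17 to 0.69). It was 0.095 without MA replicate 3, 0.14 without Control replicate 3 and 0.43 without MA replicate 1. Cacna1i, known from the thalamic reticular nucleus, showed a fold change of 0.25, and its highest value was that of MA replicate 2, without which the fold change was 0.026. The summed T-type level was 47.6, 51.1 and 45.5 RPKM in Control and 49.2, 63.0 and 71.4 RPKM in MA, so MA replicate 1 lay within the Control range. The 3 genes kept a higher mean in MA under each scaling and without each library in turn.

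Alpha2delta, beta and gamma subunits set how many calcium channels reach the membrane and how they gate. Cacna2d3 and Cacna2d1 were about equally abundant, at 20.3 and 20.03 RPKM, and which of them was higher differed between libraries of the same group. Cacna2d3 had values of 4.52, 4.48 and 4.38 in Control and 4.51, 4.44 and 4.09 in MA. MA replicate 3 alone lay outside the Control range, and the fold change was -0.11 (95% interval -0.40 to 0.18), or 0.020 without that library. Cacna2d2, which like Cacna2d1 encodes a binding site of gabapentin, had values of 1.71, 2.14 and 2.79 in Control and 2.81, 2.79 and 2.41 in MA. The Control libraries differed from each other as much as the groups did, and the fold change was 0.45 (95% interval -0.16 to 1.07). It was 0.20 without Control replicate 1 and 0.74 without Control replicate 3, where the unadjusted p was 0.00738 and the limma adjusted p 0.431. Its share of the summed alpha2delta level was 4.92%, 7.65% and 12.3% in Control and 11.5% to 12.1% in MA.

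Cacnb3 and Cacnb1 were the steadiest beta subunit genes. Cacnb3, the most abundant, had values of 6.41, 6.55 and 6.54 in Control and 6.52, 6.59 and 6.73 in MA. These overlapped, with a fold change of 0.11 (95% interval -0.09 to 0.32), or 0.055 without MA replicate 3. Cacnb1 had values of 5.29, 5.34 and 5.26 in Control and 5.19, 5.21 and 5.10 in MA. Every MA value lay below every Control value by a small margin, the fold change was -0.13 (95% interval -0.30 to 0.05), and the limma adjusted p was 0.624.

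Cacnb4, the beta subunit gene that is disrupted in the lethargic mouse, varied most of the 39 tested members, and it is described because its values stood out once seen. Its values were 4.80, 4.34 and 4.97 in Control replicates 1 to 3 and 5.74, 6.59 and 3.26 in MA replicates 1 to 3. MA replicates 1 and 2 lay above the Control libraries and MA replicate 3 below them. The SD within MA was 1.73, a spread reached by 7 of the 13321 tested genes, Cacnb4 included, and the fold change was 0.49 with a 95% interval of -1.27 to 2.25. Cacnb4 made up 12.04% to 17.9% of the summed beta subunit level in Control, 27.5% and 39.9% in MA replicates 1 and 2, and 5.47% in MA replicate 3. Without MA replicate 3 its fold change was 1.46, with an unadjusted p of 0.00138 and a limma adjusted p of 0.0576, and without MA replicate 2 it was -0.21. In the reference annotation 16.0% of its exonic length overlaps a noncoding gene on the other strand, and whether the counting used strand is not given in the sources used here.

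The summed markers of 3 of the 14 lists, thalamus, pan-neuronal and oligodendrocyte precursors, followed the same division of the MA libraries as Cacnb4, with MA replicates 1 and 2 above and MA replicate 3 below all Control libraries. For thalamus the summed level was 28.5, 25.8 and 33.7 RPKM in Control and 59.4, 73.8 and 24.5 RPKM in MA, with MA replicates 1 and 2 above all other libraries in 6 of the 7 markers. Prkcd was the most abundant, at 4.01, 3.44 and 3.34 in Control and 4.39, 5.07 and 3.35 in MA. All 7 were detected. Pan-neuronal markers summed to 2844, 2745 and 2994 RPKM in Control and 3107, 3302 and 2363 RPKM in MA, with Snap25 the most abundant and MA replicates 1 and 2 above all other libraries in 2 of 6. Oligodendrocyte precursor markers summed to 13.7, 15.2 and 14.4 RPKM in Control and 18.5, 18.8 and 13.1 RPKM in MA, with Gpr17 the most abundant and this position in 3 of 3. MA replicate 3 lay below all Control libraries in Plekhg1 and Synpo2 alone of the thalamus markers and in Gpr17 alone of the precursor markers. Among the pan-neuronal markers all but Stmn2 held this lower position. The part of these lists in the Cacnb4 result was not tested. In bulk tissue, fewer cells of a type and less RNA per cell cannot be told apart. The position of MA replicates 1 and 2 above the other 4 libraries was shared by 8 of the 39 tested members, Cacna1b, Cacna1i, Cacnb2, Cacnb4, Cacng4, Cacng7, Hcn3 and Itpr1, and by 16.1% of all tested genes. In 3 of these members, Cacnb4, Cacng7 and Itpr1, MA replicate 3 also lay below all Control libraries. This full division was held by 7.69% of the 39 tested members and by 8.82% of all tested genes. Scn2a1, the brain sodium channel gene outside the rule, had values of 3.88, 3.76 and 4.10 in Control and 4.49, 4.41 and 3.42 in MA, the same division again. Its fold change was 0.19 (95% interval -0.45 to 0.84), and 0.00025 without MA replicate 1. Without MA replicate 3 it was 0.54, with an unadjusted p of 0.00241 and a limma adjusted p of 0.0683.

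**Figure D2:**
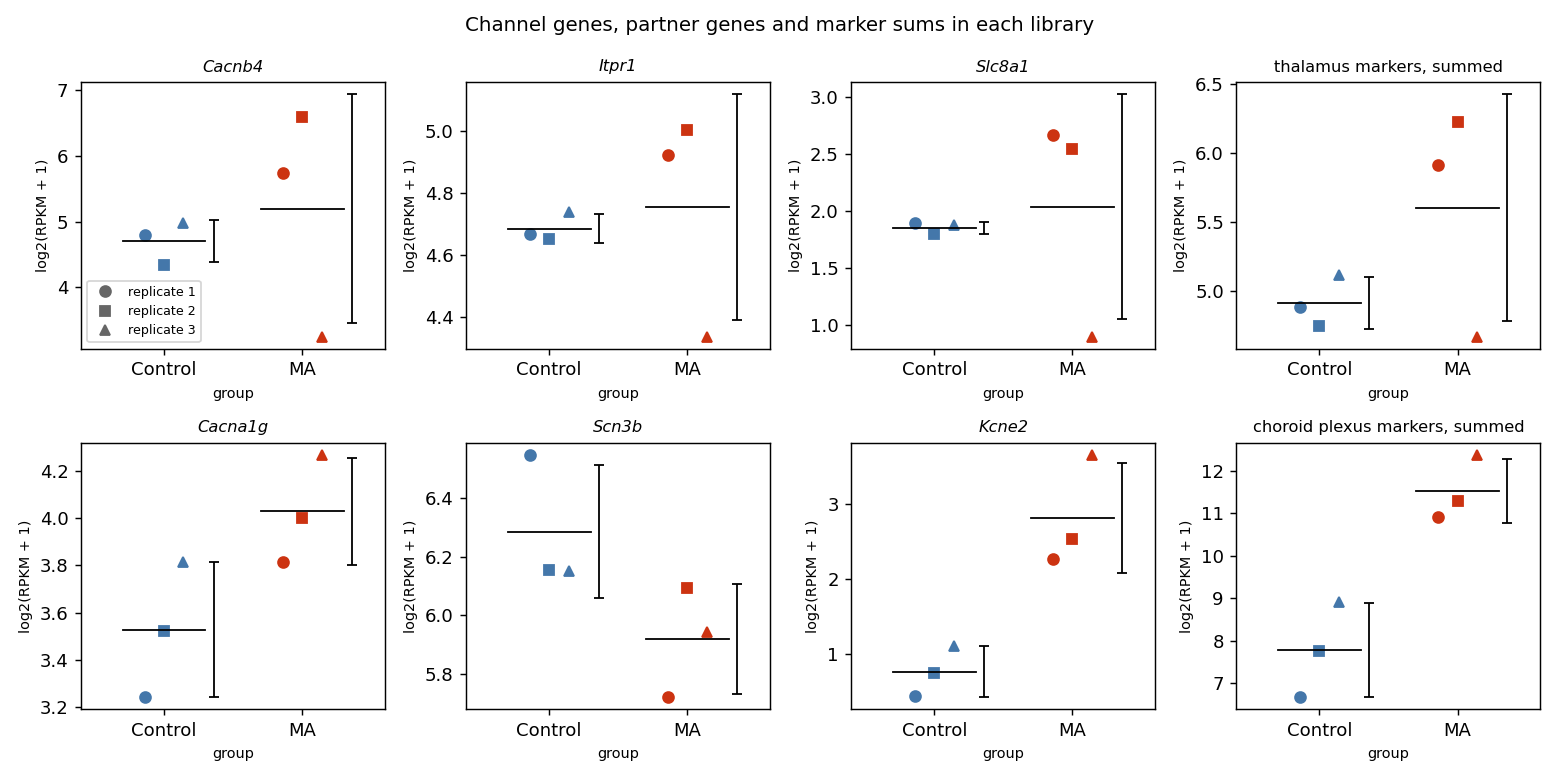
Values in each library of Cacnb4, Itpr1 and Slc8a1 beside the summed thalamus markers, and of Cacna1g, Scn3b and Kcne2 beside the summed choroid plexus markers, all as log2(RPKM + 1), with the sum taken in RPKM first; each vertical axis has its own range and does not start at 0. Lines are group means and bars the SD of 3 libraries. In the upper row MA replicate 3 is the lowest library, with Cacnb4 at 3.26.

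The gamma subunit genes include those of the TARPs, which carry AMPA receptors to the synapse and set their gating, and this class was among the most abundant. Cacng7, with the highest level, had values of 5.89, 6.10 and 6.20 in Control and 6.43, 6.31 and 5.83 in MA. MA replicates 1 and 2 were the highest and MA replicate 3 the lowest of the 6, and the fold change was 0.13 (95% interval -0.25 to 0.51), with 0.0071 without MA replicate 1 and 0.31 without MA replicate 3. Cacng3, the gamma gene with the smallest p, had values of 4.12, 4.36 and 4.36 in Control and 4.21, 3.95 and 4.17 in MA. These overlapped, with a fold change of -0.17 (limma adjusted p = 0.667) that was -0.09 without MA replicate 2. Cacng8, the TARP gene best known from the hippocampus, held 34.4% to 45.9% of the summed gamma level in Control and 32.7% to 43.9% in MA, and Cacng7 held 33.9% to 42.4% and 35.2% to 46.4%. Which of the pair was the more abundant thus differed between libraries of the same group. Cacng7, Cacng8 and Cacng6 are neighbors on chromosome 7, and Cacng6 had a mean level of only 0.791 RPKM. The 7 tested gamma genes had fold changes from -0.17 to 0.20.

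Of the sodium channel alpha genes that match the rule, Scn1a, Scn3a and Scn8a passed the filter, as did Scn2a1 outside it. Scn8a, whose channel is concentrated at the axon initial segment, was the most abundant of the 3, with values of 4.53, 4.35 and 4.40 in Control and 4.52, 4.66 and 4.23 in MA. The MA values enclosed the Control values, and the fold change was 0.04 (95% interval -0.25 to 0.33), or -0.05 without MA replicate 2 and 0.16 without MA replicate 3. Scn3a, best known from the developing brain, had values of 2.31, 2.18 and 2.39 in Control and 2.21, 2.26 and 1.97 in MA. The groups overlapped, with MA replicate 3 lowest and a fold change of -0.15 (95% interval -0.43 to 0.13) that was -0.06 without it. Scn1a, the alpha subunit gene of fast-spiking interneurons, showed the same fold change of -0.15, but 0.045 without MA replicate 3. Scn7a encodes a sodium-sensing channel that is not opened by voltage. It had values of 0.18, 0.14 and 0.14 in Control and 0.40, 0.43 and 0.24 in MA. The groups did not overlap, but all 6 values lay below the filter. With no filter its fold change was 0.20 (SE 0.06), with an unadjusted p of 0.0175 and a limma adjusted p of 0.380. Scn3a, Scn2a1, Scn1a, Scn9a and Scn7a lie in this order on chromosome 2 between 65457118 and 66784914 (GRCm38). Mean levels along this cluster ran from 15.6 RPKM in Scn2a1 to 0.198 RPKM in Scn9a, and Scn10a and Scn11a, neighbors on chromosome 9, were both under the filter.

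Sodium channel beta subunits are adhesion proteins with a single membrane span that alter the gating and placement of the alpha subunits, and Scn2b, Scn3b and Scn4b had a lower mean in MA. Scn3b had values of 6.55, 6.16 and 6.15 in Control replicates 1 to 3 and 5.72, 6.09 and 5.94 in MA replicates 1 to 3. Every MA value lay below every Control value, although MA replicate 2 came close to the lower Control libraries. The fold change was -0.37 (SE 0.14, 95% interval -0.70 to -0.03), with an unadjusted p of 0.0345 and a limma adjusted p of 0.438. Without Control replicate 1 the fold change was -0.23. The unadjusted p was 0.114 without Control replicate 1, 0.114 without MA replicate 1 and 0.0505 without MA replicate 3. Scn3b lies on chromosome 9 at 40269217 to 40291618, on the plus strand, in GRCm38. Scn2b and Scn4b, neighbors on chromosome 9, had fold changes of -0.14 and -0.26. These 3 means were lower in MA under each scaling, but that of Scn2b was not without MA replicate 3.

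HCN channels carry the hyperpolarization-activated current, and Hcn2 dominated their level with 80.4% to 87.2% of the sum in every library. Hcn2 had values of 4.60, 5.05 and 4.99 in Control and 5.23, 4.97 and 5.20 in MA. The groups overlapped because MA replicate 2 lay among the Control values, and the fold change was 0.25 (SE 0.14, 95% interval -0.07 to 0.57, limma adjusted p = 0.590), or 0.11 without Control replicate 1. Hcn3 had values of 1.72, 1.77 and 1.64 in Control and 2.20, 2.06 and 1.73 in MA. Here MA replicate 3 lay among the Control values, and the fold change was 0.29 (95% interval -0.04 to 0.61), or 0.19 without MA replicate 1. Without MA replicate 3 it was 0.42, with an unadjusted p of 0.00487 and a limma adjusted p of 0.0840. Of its exonic length, 17.1% overlaps Pklr on the other strand.

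Ryanodine receptors open on calcium itself and amplify it. Ryr2, the most abundant by its mean level, had values of 3.80, 3.48 and 3.64 in Control and 3.43, 3.59 and 3.28 in MA. The lowest 2 libraries were from MA but the groups overlapped, with a fold change of -0.21 (95% interval -0.50 to 0.08, limma adjusted p = 0.622) that was -0.13 without Control replicate 1. Ryr3 varied over more than 1 log2 unit within Control, with 3.50, 2.90 and 2.41, and within MA it had 2.28, 2.74 and 3.29. Ryr1 ranked the libraries in nearly the same way, with 1.95, 1.57 and 1.31 in Control and 1.28, 1.65 and 2.004 in MA. In both genes Control replicate 1 and MA replicate 3 held the highest values, and the fold changes of -0.16 and 0.04 were small against an SD of 0.32 to 0.55 within the groups. For Ryr3 the fold change was 0.12 without Control replicate 1 and -0.43 without Control replicate 3, and for Ryr1 it ran from -0.14 to 0.22 when 1 library was left out.

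Itpr1, the IP3 receptor gene that dominates in neurons, made up 90.7% to 92.7% of the summed IP3 receptor level in every library. Its values were 4.67, 4.65 and 4.74 in Control and 4.92, 5.002 and 4.34 in MA. MA replicates 1 and 2 lay above and MA replicate 3 below the Control libraries, and the fold change was 0.07 (95% interval -0.33 to 0.47). Without MA replicate 3 it was 0.28, with an unadjusted p of 0.00581 and a limma adjusted p of 0.0882. Itpr2 and Itpr3 had fold changes of -0.01 and 0.03, with either sign when libraries were left out.

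**Figure D3:**
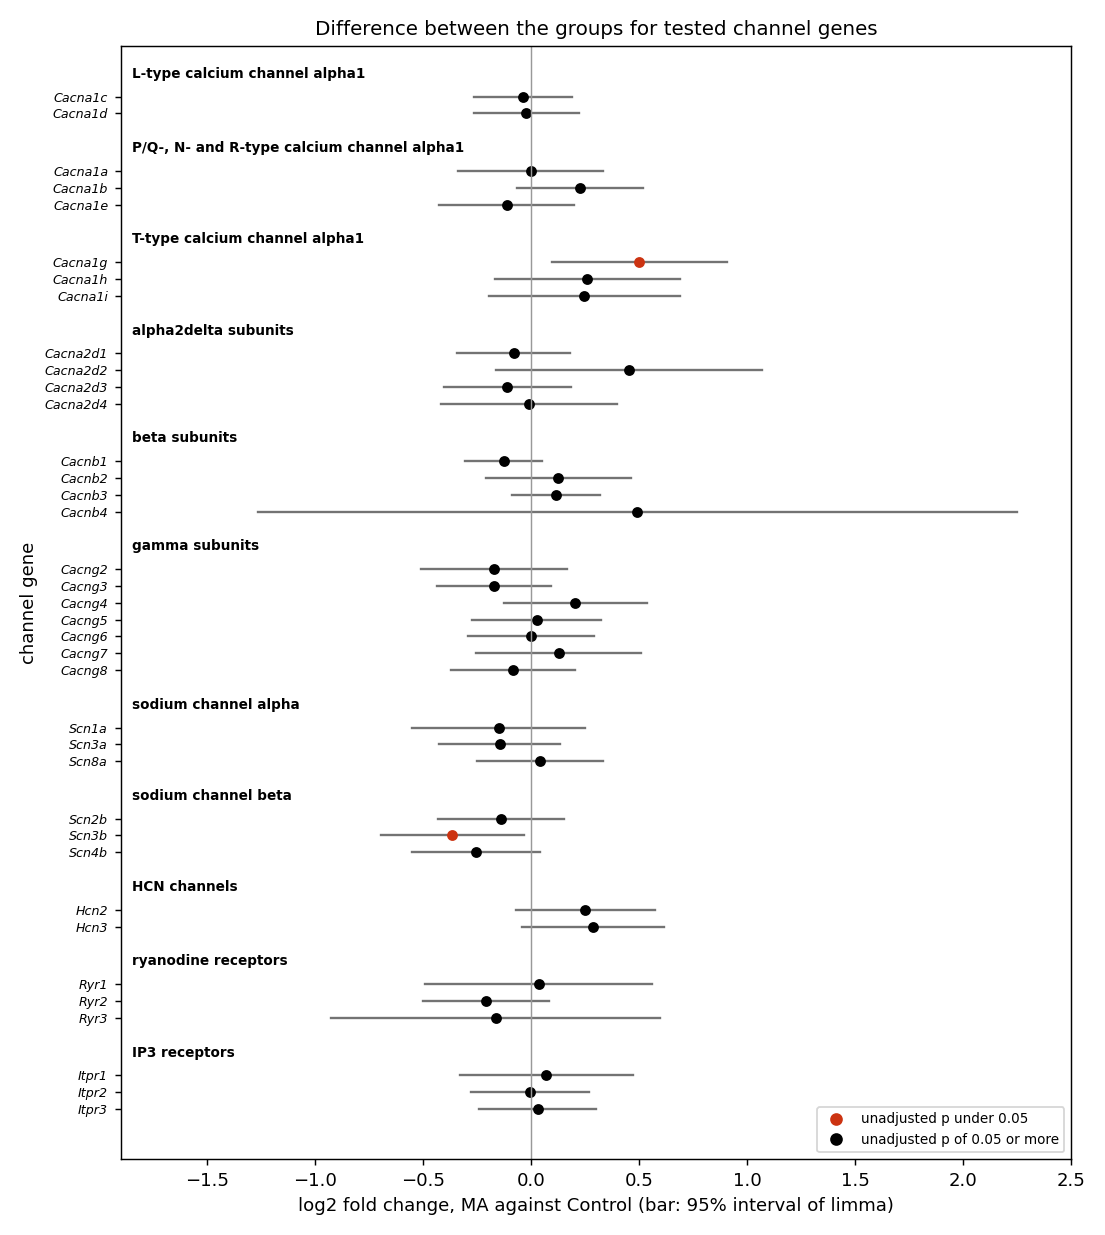
Log2 fold change of MA against Control with its 95% interval from limma for tested channel genes, by class; red points have an unadjusted p under 0.05. Both red points, Cacna1g at 0.50 and Scn3b at -0.37, have adjusted p-values far above the threshold, and the interval of Cacnb4 is the widest at -1.27 to 2.25.

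The medians of the classes, set beside the median of -0.01 of all tested genes, were highest in the T-type genes at 0.26 and the HCN genes at 0.25. The beta subunits of the calcium channel followed at 0.12, IP3 receptors at 0.03, gamma subunits at 0.00019 and P/Q-, N- and R-type genes at -0.0024. Below them lay the L-type genes at -0.03, alpha2delta subunits at -0.05, sodium channel alpha genes at -0.15, ryanodine receptors at -0.16 and sodium channel beta genes at -0.20. With 2 to 7 tested genes in a class, these medians describe the classes and were not tested. When each library was left out in turn, 8 of the 11 medians changed sign at least once, those of the T-type, HCN and sodium channel beta genes being the exceptions. Ryanodine receptors had 0.12 without Control replicate 1 and 0.079 without MA replicate 1. The sodium channel alpha genes had 0.045 and alpha2delta subunits 0.071 without MA replicate 3, and without MA replicate 2 the calcium channel beta subunits had -0.05. The median of the HCN genes was 0.11 without Control replicate 1, and that of the T-type genes was 0.43 without MA replicate 1 and with the libraries weighted by quality.

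Proteins that bind the channels or share their calcium pools were taken from 5 lists of 80 genes, of which 74 had a row and 70 were tested. None of the 70 had a limma adjusted p under 0.05, and 7 had an unadjusted p under 0.05, 2 of them higher and 5 lower in MA. With every library this share is close to the 10.4% of all tested genes, and the median fold change of the 70 was -0.01. Without MA replicate 3, 24 of the 70 had an unadjusted p under 0.05, where 23.3% of all tested genes did. Weighting the libraries by quality also gave 24, where 26.3% of all genes had such a p. Both shares are larger than those of all genes. With a minimum mean of 5 the number was 2, among fewer tested genes. In the main test, 3 of 15 tested calcium channel modulators had such a p, all lower in MA, where the share of the whole table corresponds to between 1 and 2 genes. Gem, a small GTPase that binds beta subunits and reduces calcium current, had values of 1.59, 1.62 and 1.54 in Control and 1.01, 1.13 and 1.21 in MA. Its fold change was -0.47 (SE 0.10) with a limma adjusted p of 0.203. Rrad, of the same GTPase family, had 1.03, 0.88 and 1.15 in Control and 0.80, 0.60 and 0.67 in MA. Stac, an adaptor of L-type channels, had 1.997, 2.30 and 1.82 in Control and 0.88, 1.17 and 1.51 in MA. The groups of these 3 genes did not overlap, and the fold changes of Rrad and Stac were -0.33 and -0.85. With a pseudocount of 0.1 the fold changes were -0.73 for Gem, -0.66 for Rrad and -1.24 for Stac, and the limma adjusted p-values were 0.217, 0.420 and 0.220. Each of the 3 had a mean level of 0.825 to 2.24 RPKM, low beside the channel genes they act on.

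Homer1, a postsynaptic scaffold that links metabotropic glutamate receptors to IP3 receptors, was the only one of 17 tested ryanodine and IP3 receptor partners with an unadjusted p under 0.05. Its values were 5.30, 4.95 and 5.17 in Control and 4.50, 4.42 and 3.81 in MA. Every MA value lay below every Control value, the fold change was -0.90 (SE 0.19), and the limma adjusted p was 0.183. Of 22 genes of store-operated entry, pumps and exchangers, Orai1 and Slc8a2 had such a p. Orai1, the pore of store-operated calcium entry, had values of 2.40, 2.37 and 2.32 in Control and 2.65, 2.66 and 2.72 in MA, with a fold change of 0.31. Slc8a2, a sodium-calcium exchanger of neurons, had 6.59, 6.39 and 6.52 in Control and 6.17, 6.32 and 6.15 in MA, with a fold change of -0.28. Their limma adjusted p-values were 0.298 and 0.345. Another exchanger gene, Slc8a1, chosen after its values were seen, had 1.90, 1.80 and 1.88 in Control and 2.67, 2.55 and 0.90 in MA, the division of the MA libraries seen in Cacnb4. None of 13 sodium channel partners had an unadjusted p under 0.05. Without MA replicate 3, 5 of the 70 partner genes had a limma adjusted p under 0.05, Atp2b3, Homer1, Kcne2, Slc8a1 and Stac, where 257 of all 13321 tested genes (1.93%) did, against 35 with every library. The adjusted p-values of Homer1, Kcne2 and Stac were then 0.0423, 0.0274 and 0.0453.

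Kcne2, an accessory subunit of potassium and HCN channels that is abundant in choroid plexus epithelium, showed the largest fold change of the partner genes. Its values were 0.42, 0.73 and 1.11 in Control and 2.27, 2.53 and 3.66 in MA. Every MA value lay above every Control value, the fold change was 2.07 (SE 0.36, 95% interval 1.23 to 2.90), and the limma adjusted p was 0.0975. The other tested HCN partners, Pex5l and Kctd3, had fold changes near 0. All 9 choroid plexus markers were likewise higher in every MA library than in every Control library, and 5 of them had a limma adjusted p under 0.05. Their summed level was 101, 216 and 477 RPKM in Control and 1929, 2518 and 5306 RPKM in MA, and Ttr was the most abundant at 5.87, 7.39 and 8.68 in Control and 10.77, 11.14 and 12.30 in MA. Cacna1g and Kcne2 ordered the 6 libraries in the same way as this sum did. Cacna1g was the only one of the 39 tested members to do so, and 0.345% of all tested genes did. For Cacna1g this order rests on a near tie, since Control replicate 3 and MA replicate 1 both round to 3.82. The part of choroid plexus tissue in the Kcne2 and Cacna1g results was not tested. For the 12 lists other than thalamus and choroid plexus, the ratio of the summed level in MA to that in Control lay between 0.843 for CA1 pyramidal cells and 1.16 for oligodendrocyte precursors, against 1.79 for thalamus and 12.3 for choroid plexus. These ratios of group means do not show a division within the MA group.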

How the data were processed

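By the study's methods, Hisat2 was used for alignment and featureCounts for counting, and the authors then computed FPKM. The submitters' processing notes instead name Bowtie 0.12.2 with mm8 and mm9. The kits also differ between labels and methods, and the annotation is not given in the sources used here. The deposited values carry the name RPKM but were read as log2 with an inferred offset of 1, already brought to a common distribution. Neither step is described, and depth is unknown.

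Rows were matched by symbol. Genes with at least 0.5 RPKM in at least 3 of 6 libraries, 13321 in all, were tested with limma 3.58.1 in R 4.3.3 (lmFit, eBayes with trend), MA against Control, with Benjamini-Hochberg adjustment over all of them. The procedure was tested on simulated data. Alternatives were another pseudocount, other filters, other scalings, no trend, quality weights, the replicate number as a block, and each library left out. GENCODE M21 (GRCm38) gave locations, and 15987 of 16031 identifiers matched. Values in every library were given for members with an unadjusted p under 0.05, members without overlap, and the most abundant and smallest-p tested member of each class. Members and lists were chosen with earlier results of these data known. Nothing says that same-numbered mice were paired. Some members are not reported here.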

Additional observations from a re-analysis of the deposited data

How the results depend on the processing

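Under all 14 alternatives limma called 0 channel genes at an adjusted p under 0.05. The number of channel genes with an unadjusted p under 0.05 was 2 in the main test (10.4% of all genes), 12 with sample quality weights (26.3%), 1 with the replicate block (6.32%), and 0 to 7 when 1 library was left out (6.22% to 23.3%). The number of partner genes with an adjusted p under 0.05 was 0 in the main test, 4 with sample quality weights (Gem, Homer1, Kcne2 and Stac; 4.40% of all genes were called), 1 with the replicate block (Kcne2; 0.113% of all genes), and 0 to 5 when 1 library was left out. The cause of these shifts was not tested. The correlation of the deviations of same-numbered libraries was -0.197, -0.242 and -0.337, and no Control library correlated best with the MA library of its own number. With 3 libraries per group, deviations from the group mean depend on each other. These correlations therefore cannot decide whether the mice were paired.

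When each library was left out in turn, 20 of the 39 tested members changed direction at least once. For the 29 genes followed under the alternatives, which are not all of the genes in the text, 13 of 398 fold changes changed direction, in 7 genes. With sample quality weights Cacna1a had 0.0064 and Cacna1c 0.024. When 1 library was left out, the fold change ranged from -0.10 to 0.16 for Cacna1a, -0.10 to 0.0071 for Cacna1c, -0.19 to 0.020 for Cacna2d3, -0.21 to 1.46 for Cacnb4, -0.055 to 0.28 for Itpr1, -0.43 to 0.12 for Ryr3 and -0.054 to 0.16 for Scn8a. With the depth unknown, no counting error can be given for the members under the filter.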
